A study of Mus musculus with 18 samples.

Results

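The libraries described here are the 6 of the intervene group, wild-type mouse thalamus that received Coll IV and remodelin. Replicates 4, 5 and 6 were set against replicates 1, 2 and 3, so 6 of the 18 libraries of the series are members, 3 in each set. The groups beside them are 6 model libraries (wild type, Coll IV alone) and 6 control libraries (wild type, saline), each also numbered 1 to 6. The labels do not expand Coll IV, and they give neither a time after injury nor an age, sex or batch. They also do not say whether each sample came from its own animal, so no error below is known to measure spread between animals. Each SE rests on the spread between samples in 1 fit of all 18 libraries. The intervals given for some count ratios cover counting error only. Remodelin is an inhibitor of NAT10, an RNA acetyltransferase, and the series title asks what it does to genes of inflammation in a thalamic haemorrhage. Treatment was the same for all 6 libraries according to the labels, and the replicate number is the only label that differs between the sets.

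The sets were chosen by measured values. The boundary between replicates 3 and 4 was noticed in the expression of these libraries, where it separates them along the first principal component. That component held 42.3% of the variance of log2 CPM among the 6 intervene libraries and placed them in the order 1, 3, 2, 4, 6, 5, with a value of 15.3 for replicate 4 and -7.36 for replicate 2 on either side of the boundary. In all 18 libraries the first component held 40.9%. On it the lowest of replicates 4 to 6 lay above the highest of replicates 1 to 3 in each group. That distance was 22.4 in intervene, 56.5 in model and 111 in control. Everything given for the intervene sets is therefore a description, including which genes are called, since a threshold applied to a boundary found in the same values is no independent test. Tests are meant only for the difference between the intervene gap and the gap of another group, and these still share the intervene libraries with the choice of the sets.

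Bleeding into brain tissue releases haemoglobin, and the haem freed from it is opened by haem oxygenase to biliverdin, carbon monoxide and iron. Products of damaged cells and of blood are sensed by Toll-like receptors and CD14 on microglia and other cells. The NF-kB transcription factors then switch on chemokines, which draw leukocytes out of the blood, and cytokines such as interleukin 1 beta. The thalamus borders the habenula, the hypothalamus, the ventricles with their choroid plexus and ependyma, the striatum and the midbrain, so a dissected piece can carry transcripts of each neighbour.

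Depth was alike in both intervene sets, at 29083657 to 32669024 counts in replicates 4 to 6 and 29277921 to 30987033 counts in replicates 1 to 3. The model libraries held 29429827 to 36361681 counts and the control libraries 28481225 to 118461420, the highest being control replicate 1 and the next control replicate 5 with 56878946. Protein genes of the mitochondrial genome took 9.70 to 15.13% of counts in replicates 4 to 6 and 9.04 to 13.2% in replicates 1 to 3. No pair of intervene libraries agreed within sampling noise, the lowest chi-square per degree of freedom over 15 pairs being 26.4. Nat10, the target of remodelin, had 17.5, 16.8 and 16.1 CPM in replicates 4, 5 and 6, against 16.3, 14.4 and 15.8 CPM in replicates 1, 2 and 3, which overlap. Counts of 1 to 20 were even numbers in 77.0 to 85.1% of cases in the 18 libraries, as would be seen if a fragment often gave 2 counts. The intervals and floors below cover counting error only and may be too narrow for that reason. Replicates 4 to 6 of model and control held few transcripts of the thalamic markers Tcf7l2 and Shox2, with values given further below, which bears on every comparison with those groups.

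Of 19513 genes measured, 1399 were called higher in replicates 4 to 6 (7.17%) and 1286 lower (6.59%), where called means an adjusted p under 0.05 by edgeR's quasi-likelihood test. In the intervene sets this serves only to sort genes by the size of the gap against the spread between libraries, and such counts are no evidence that the sets differ. Without TMM scaling, on library totals, the calls were 791 higher and 1570 lower, and on log2(FPKM + 1) with limma they were 880 higher and 1636 lower, so the share of higher calls was 52.1% with TMM, 33.5% on totals and 35% on FPKM. The count of 2685 was 1084 without replicate 1, 1264 without replicate 3, 1256 without replicate 5 and 984 without replicate 6. The values of the sets did not overlap, with replicates 4 to 6 all higher, in 2994 genes (15.3%), and with replicates 4 to 6 all lower in 3012 genes (15.4%). Each list count below is to be read beside these shares of all genes. The median log2 fold change of all genes was -0.01. A gene passed the expression filter if it reached a minimum CPM in about as many libraries as 1 set holds, from whichever groups. A list's measured members therefore favour genes that are high somewhere. The same boundary in the other groups gave 1622 genes higher (8.31%) and 1785 lower (9.15%) in model, and 3494 higher (17.9%) and 3637 lower (18.6%) in control.

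Most chemokine and cytokine genes measured were called higher in replicates 4 to 6. Of 20 listed genes 18 were measured, 14 were called higher and 0 lower, where all genes gave 7.17% and 6.59%, and all 14 had sets that did not overlap. Ccl2 and Cxcl10 of this list served as markers of the sets, and the list was chosen with these values known, so nothing is read from its count against all genes. Their median log2 fold change was 3.35 in intervene, 0.36 in model and -0.45 in control. The 4 measured members that were not called were Ccl5, Cxcl16, Csf1 and Il11. The 2 members below the expression filter were Il6, with 34 counts summed over replicates 4 to 6 and 4 over replicates 1 to 3, and Csf3, with 84 counts and 0. The count of 14 was 9 without replicate 1.

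**Figure D1:**
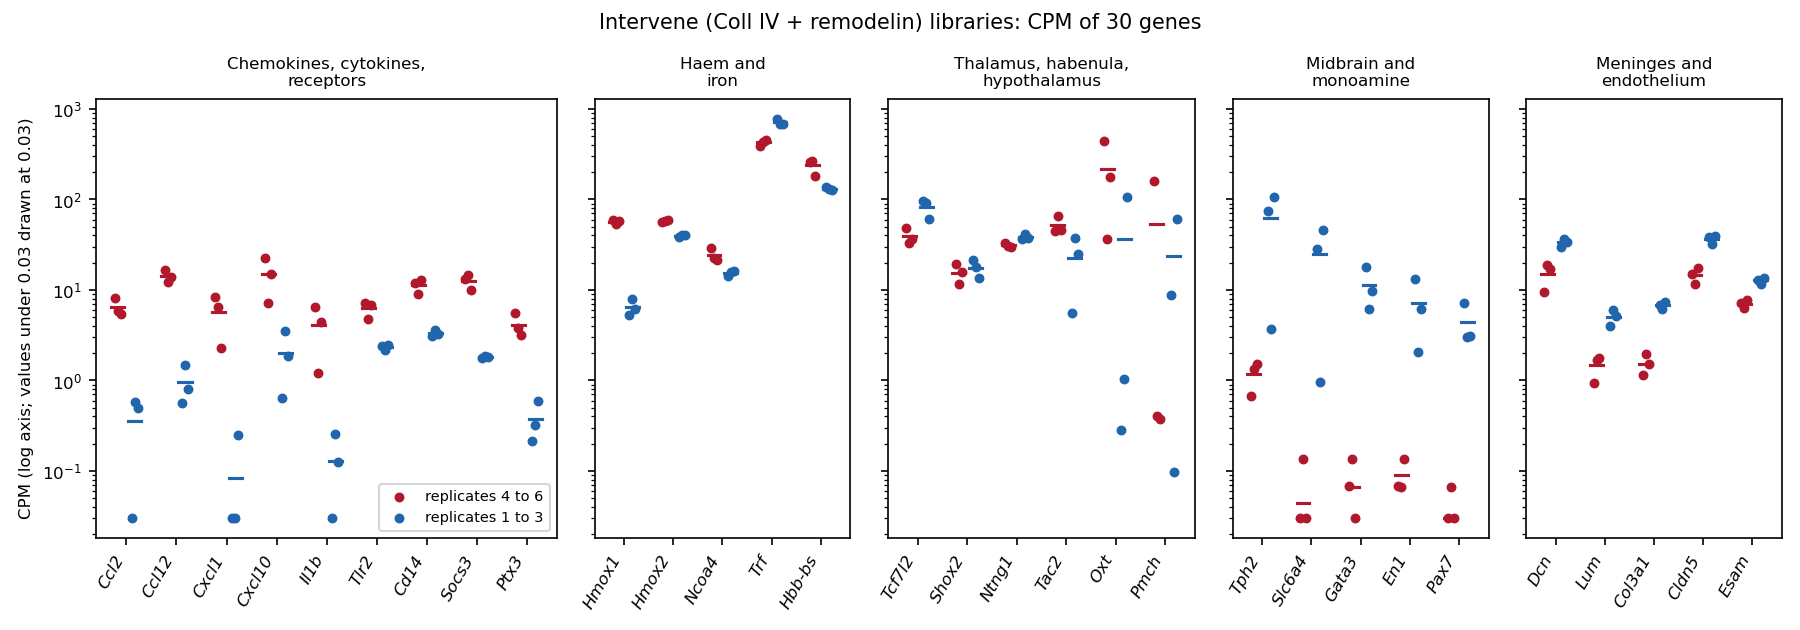
CPM of 30 genes in the 6 intervene libraries on a log axis, with replicates 4 to 6 (red) left of replicates 1 to 3 (blue), 1 point per library and a bar at the mean of 3. The chemokine, cytokine and receptor genes and Hmox1 lie higher in all replicates 4 to 6, the midbrain, monoamine, meningeal and endothelial genes lie lower, and Oxt and Pmch spread over both sets.

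The promoters of genes in this group and of 2 genes described further below, Tlr2 and Socs3, are shown because these genes were higher together and because NF-kB, interferon-stimulated factors and STAT factors bind known letter patterns. The genes shown were chosen by hand and each holds a match. Called chemokine and cytokine genes without a match are not shown. Each line gives the 250 bases before the gene start, 5′ to 3′ on the gene's strand, from RefSeq on GRCm38.p6; the deposited counts refer to another build, GRCm39. Capitals mark matches on either strand to GGGNNNTTCC (NF-kB), TTTCNNTTTC (the interferon-stimulated response element) or TTCNNNGAA (STAT), where N is any base. The regions are chr5:90890995-90891244 (plus strand) for Cxcl1, chr5:90903649-90903898 (plus strand) for Cxcl2, chr5:92348890-92349139 (minus strand) for Cxcl10, chr3:83841609-83841858 (minus strand) for Tlr2 and chr11:117969367-117969616 (minus strand) for Socs3.
Cxcl1: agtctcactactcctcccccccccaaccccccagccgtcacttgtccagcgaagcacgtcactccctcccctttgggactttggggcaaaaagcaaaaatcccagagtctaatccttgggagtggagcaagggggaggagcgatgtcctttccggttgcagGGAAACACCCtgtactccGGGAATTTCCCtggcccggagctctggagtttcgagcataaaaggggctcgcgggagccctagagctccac
Cxcl2: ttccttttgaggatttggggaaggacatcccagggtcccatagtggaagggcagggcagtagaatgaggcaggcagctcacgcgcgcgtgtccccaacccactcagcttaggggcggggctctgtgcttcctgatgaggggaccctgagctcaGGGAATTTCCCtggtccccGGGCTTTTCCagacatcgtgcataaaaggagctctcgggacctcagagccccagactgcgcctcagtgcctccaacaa
Cxcl10: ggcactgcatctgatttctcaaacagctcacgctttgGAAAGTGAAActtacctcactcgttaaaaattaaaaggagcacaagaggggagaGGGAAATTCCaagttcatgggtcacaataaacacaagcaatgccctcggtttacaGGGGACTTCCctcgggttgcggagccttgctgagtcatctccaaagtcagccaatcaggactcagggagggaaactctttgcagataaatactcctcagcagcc
Tlr2: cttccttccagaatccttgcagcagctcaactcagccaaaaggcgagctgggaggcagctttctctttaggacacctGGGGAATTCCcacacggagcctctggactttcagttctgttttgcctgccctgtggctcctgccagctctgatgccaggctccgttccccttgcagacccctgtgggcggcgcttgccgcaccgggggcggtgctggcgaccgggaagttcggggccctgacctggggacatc
Socs3: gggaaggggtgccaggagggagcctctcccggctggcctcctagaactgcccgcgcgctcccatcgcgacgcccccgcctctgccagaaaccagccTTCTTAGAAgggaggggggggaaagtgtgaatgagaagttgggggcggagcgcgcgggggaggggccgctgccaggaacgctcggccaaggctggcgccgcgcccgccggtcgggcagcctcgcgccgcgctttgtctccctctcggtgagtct

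The NF-kB letters were found at 3 overlapping or neighbouring places in the Cxcl1 window, at 3 in that of Cxcl2, at 2 in that of Cxcl10 and at 1 in that of Tlr2. On the gene's strand they read GGGAATTTCC in both Cxcl1 and Cxcl2, starting 71 bases before the start of Cxcl1 and 97 before that of Cxcl2. This run also matches on the other strand, shifted by 1 base. The interferon element appeared in Cxcl10 alone of these 5, and the STAT letters in Socs3 alone, as TTCTTAGAA. The STAT pattern with its free bases is its own reverse complement, so this place matches on both strands. Of the 14 cytokine and chemokine genes called higher, 11 had an entry and 5 held the NF-kB letters, namely Ccl9, Cxcl1, Cxcl2, Cxcl10 and Il1rn. Over all 32851 promoter windows of this length the share was 4.65% for the NF-kB letters, 2.98% for the interferon element and 7.02% for the STAT letters. A match is a stretch of letters and does not show that a factor was bound.

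Among the CC chemokines, which draw monocytes and lymphocytes, Ccl2, the main monocyte attractant, had 8.14, 5.84 and 5.44 CPM in replicates 4, 5 and 6, against 0, 0.582 and 0.497 CPM in replicates 1, 2 and 3. The log2 fold change was 4.13 ± 0.80 (SE, n = 3 in each set, as for all log2 fold changes below). Ccl12, a mouse monocyte chemokine, had 16.4, 12.2 and 13.9 CPM in replicates 4, 5 and 6, against 0.57, 1.49 and 0.807 CPM in replicates 1, 2 and 3, a log2 fold change of 3.88 ± 0.72. Every library of replicates 4 to 6 thus lay several-fold above every library of replicates 1 to 3 for both. Ccl7 had 2.03, 2.35 and 1.57 CPM in replicates 4, 5 and 6, against 0.0712, 0.194 and 0.186 CPM in replicates 1, 2 and 3 (log2 fold change 3.68 ± 0.90); it was not called without replicate 1 or without replicate 3. Ccl3 had 5.57, 3.39 and 7.22 CPM in replicates 4, 5 and 6, against 0.321, 0.323 and 0.776 CPM in replicates 1, 2 and 3 (log2 fold change 3.49 ± 0.58). Ccl4 had 6.69, 2.65 and 4.65 CPM in replicates 4, 5 and 6, against 0.214, 0.323 and 0.621 CPM in replicates 1, 2 and 3 (log2 fold change 3.57 ± 0.59). The sets overlapped for neither gene.

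Cxcl1 and Cxcl2 encode neutrophil attractants that act on CXCR2. Cxcl1 had 8.31, 6.51 and 2.26 CPM in replicates 4, 5 and 6, against 0, 0 and 0.248 CPM in replicates 1, 2 and 3 (log2 fold change 5.99 ± 0.93). Cxcl2 had 1.42, 2.52 and 0.547 CPM in replicates 4, 5 and 6, against 0, 0.0647 and 0 CPM in replicates 1, 2 and 3. It gave 133 counts in replicates 4 to 6 and 2 in replicates 1 to 3, a ratio of 68.4 with an exact 95% interval of 18.6 to 571. Replicates 1 to 3 were at or near 0 for both, and replicate 6 was the lowest of its set for both. Cxcl10, an interferon-inducible attractant of T cells, had 22.8, 7.22 and 15 CPM in replicates 4, 5 and 6, against 0.641, 3.56 and 1.86 CPM in replicates 1, 2 and 3 (log2 fold change 2.88 ± 0.87). Its sets did not overlap, and its call was lost when any 1 of replicates 1, 3, 4, 5 and 6 was left out.

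The cytokines in the group included Il1b, which encodes interleukin 1 beta, with 6.52, 1.21 and 4.48 CPM in replicates 4, 5 and 6, against 0, 0.259 and 0.124 CPM in replicates 1, 2 and 3 (log2 fold change 4.93 ± 0.84). Replicate 5 was lowest and replicate 4 highest in the higher set. Il12b, a subunit of interleukins 12 and 23, had 0.54, 0.403 and 2.8 CPM in replicates 4, 5 and 6, against 0, 0.0647 and 0.186 CPM in replicates 1, 2 and 3 (log2 fold change 3.80 ± 0.99), and replicate 6 alone carried most of it. Without replicate 6, or without replicate 1, Il12b was not called. Plaur, the receptor of urokinase and no member of the chemokine list, was among the 10 largest differences, with 4.15, 3.89 and 2.67 CPM in replicates 4, 5 and 6, against 0, 0.517 and 0.435 CPM in replicates 1, 2 and 3 (log2 fold change 3.45 ± 0.63). Csf1, the growth factor of microglia, had 30.2, 23.8 and 21.8 CPM in replicates 4, 5 and 6, against 20.7, 24.5 and 19.6 CPM in replicates 1, 2 and 3, and these sets overlap.

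Markers of infiltrating leukocytes were measured near the detection limit. Of 12 neutrophil genes 6 were measured, and 3 of them were called higher and 0 lower. The higher genes were S100a8 and S100a9, which encode the calprotectin subunits, and Retnlg. S100a8 had 3.34, 2.08 and 0.821 CPM in replicates 4, 5 and 6, against 0.142, 0.259 and 0.186 CPM in replicates 1, 2 and 3 (log2 fold change 3.38 ± 0.76). S100a9 had 4.86, 3.69 and 2.53 CPM in replicates 4, 5 and 6, against 0.142, 0.711 and 0.621 CPM in replicates 1, 2 and 3 (log2 fold change 2.89 ± 0.70), a call lost without replicate 1. Retnlg had 0.743, 0.604 and 0.547 CPM in replicates 4, 5 and 6, against 0, 0 and 0 CPM in replicates 1, 2 and 3, with 56 and 0 counts summed over the sets, so it was at least 19.2-fold higher in replicates 4 to 6, taking 3 counts over the set as the floor. Ngp, a neutrophil granule gene, went the other way, with 2 counts in replicates 4 to 6 and 18 in replicates 1 to 3, a ratio of 8.75 with an exact 95% interval of 2.09 to 77.7 toward replicates 1 to 3. Its sets did not overlap and it was not called. The defining neutrophil gene Ly6g had 0 counts in both sets and Elane had 2 counts in replicates 4 to 6 and 4 in replicates 1 to 3. The list scores were 0.08, -0.61 and -0.48 in replicates 4, 5 and 6 and -2.12, -1.15 and -1.39 in replicates 1, 2 and 3, as mean log2 CPM over the measured members. The part of neutrophil RNA in the chemokine result was not tested. In bulk tissue, fewer cells of a type and less RNA per cell cannot be told apart.

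For monocytes and macrophages, 11 of 12 genes were measured, 0 were called higher and 2 lower. Ccr2, the receptor of CCL2, had 0.946, 0.403 and 0.41 CPM in replicates 4, 5 and 6, against 0.142, 0.194 and 0.931 CPM in replicates 1, 2 and 3, which overlap. Cd163, the haptoglobin-haemoglobin receptor of perivascular macrophages, was lower, with 0.507, 0.537 and 0.205 CPM in replicates 4, 5 and 6, against 1.25, 1.88 and 1.68 CPM in replicates 1, 2 and 3 (log2 fold change -1.93 ± 0.36). The other lower gene was Mrc1. Ly6c2, a surface marker of inflammatory monocytes, had 0.473, 0.806 and 0.821 CPM in replicates 4, 5 and 6, against 0, 0.291 and 0.404 CPM in replicates 1, 2 and 3 (log2 fold change 1.56 ± 0.78). Plac8, another monocyte gene, had 0.54, 0.738 and 1.09 CPM in replicates 4, 5 and 6, against 0, 0.194 and 0.435 CPM in replicates 1, 2 and 3 (log2 fold change 1.87 ± 0.99). Replicates 4 to 6 lay above 1 to 3 for both without overlap. Neither was called on counts, whereas log2(FPKM + 1) with limma called both. F13a1 was lower, with 0.127, 0.092 and 0.119 FPKM in replicates 4, 5 and 6. It had 0.203, 0.208 and 0.232 FPKM in replicates 1, 2 and 3, and was not called. Over the whole list, 2 members were higher and 3 lower without overlap, and the median log2 fold change was -0.83. List scores were -0.50, -0.28 and 0.02 in replicates 4, 5 and 6 and -0.51, 0.32 and 0.46 in replicates 1, 2 and 3. Of 9 lymphocyte genes 3 were measured and none was called in either direction. Cd4, a co-receptor of helper T cells that microglia and macrophages can also carry, had 9.19, 35.2 and 22.4 CPM in replicates 4, 5 and 6, against 0.641, 4.98 and 2.05 CPM in replicates 1, 2 and 3 (log2 fold change 3.11 ± 1.27), higher in all of replicates 4 to 6 and called on FPKM alone among the fits run. Cd79a, a B cell receptor subunit, had 0.405, 0.201 and 0.342 CPM in replicates 4, 5 and 6, against 1.71, 0.517 and 0.528 CPM in replicates 1, 2 and 3 (log2 fold change -1.52 ± 0.57), lower in all of replicates 4 to 6 and not called. Below the filter, Cd3e had 16 counts over replicates 4 to 6 and 14 over replicates 1 to 3.

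Of the Toll-like receptor and NF-kB list, all 22 genes were measured, 11 were called higher and 0 lower, where all genes gave 7.17% and 6.59%. The list median log2 fold change was 0.57 in intervene, -0.09 in model and 0.16 in control. The called genes were receptors and adaptors (Tlr2, Cd14, Myd88, Ticam1), subunits (Nfkb2, Rela) and inhibitors or modulators of NF-kB (Nfkbia, Nfkbib, Nfkbiz, Tnip1, Bcl3). Tlr3, Tlr4, Tlr6, Nfkb1 and Rel had log2 fold changes of -0.07, -0.31, -0.43, -0.03 and -0.04 and were not called. The count of 11 was 6 without replicate 1, 6 without replicate 3 and 7 without replicate 5. Members not picked by the rule for named genes are listed here after their values were seen.

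Tlr2, the receptor of bacterial lipoproteins and of several products of damaged tissue, had 7.23, 4.83 and 6.77 CPM in replicates 4, 5 and 6, against 2.42, 2.2 and 2.48 CPM in replicates 1, 2 and 3 (log2 fold change 1.41 ± 0.24). Its co-receptor Cd14 had 11.8, 8.93 and 12.9 CPM in replicates 4, 5 and 6, against 3.13, 3.62 and 3.29 CPM in replicates 1, 2 and 3 (log2 fold change 1.74 ± 0.29). Replicates 1 to 3 lay within a narrow range for both genes and every replicate of the other set lay above it. Bcl3, a nuclear cofactor of NF-kB p50 and p52, had 6.15, 4.16 and 6.5 CPM in replicates 4, 5 and 6, against 1.07, 1.03 and 1.92 CPM in replicates 1, 2 and 3 (log2 fold change 2.05 ± 0.40). Nfkbib, an inhibitor that holds NF-kB in the cytoplasm, had 38.1, 50.4 and 60.6 CPM in replicates 4, 5 and 6, against 27.4, 26.9 and 26.2 CPM in replicates 1, 2 and 3 (log2 fold change 0.89 ± 0.16). Tnip1, a partner of the ubiquitin editor A20, had 34.3, 34.9 and 36.8 CPM in replicates 4, 5 and 6, against 25.8, 24.7 and 22.7 CPM in replicates 1, 2 and 3 (log2 fold change 0.53 ± 0.09). The last of these is the smallest fold of the 5 and its sets still did not overlap.

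Socs3, the feedback inhibitor of STAT3 signalling, had 13.2, 14.6 and 9.88 CPM in replicates 4, 5 and 6, against 1.78, 1.88 and 1.8 CPM in replicates 1, 2 and 3 (log2 fold change 2.79 ± 0.28). Stat3 itself had 55.3, 49.5 and 41.9 CPM in replicates 4, 5 and 6, against 31.1, 36.9 and 39 CPM in replicates 1, 2 and 3 (log2 fold change 0.45 ± 0.11). Osmr, the oncostatin M receptor, had 5.71, 10.2 and 8.14 CPM in replicates 4, 5 and 6, against 2.35, 3.72 and 4.47 CPM in replicates 1, 2 and 3 (log2 fold change 1.19 ± 0.28). Socs3 kept its call whichever library was left out, whereas Stat3 was not called without replicate 1 and Osmr not without replicate 1 or replicate 5. Of the 12 genes of IL-6 family receptors and STAT3, 3 were called higher and 2 lower, with a list median of 0.24 in intervene, -0.04 in model and 0.24 in control. The lower genes were Il6st and Lifr. Il6st, the shared signalling receptor gp130, had 39.1, 34.8 and 30.5 CPM in replicates 4, 5 and 6, against 47.6, 49.1 and 56.5 CPM in replicates 1, 2 and 3 (log2 fold change -0.55 ± 0.13). Lifr, the receptor of leukaemia inhibitory factor, had 24.4, 20.3 and 17.6 CPM in replicates 4, 5 and 6, against 39.1, 25.5 and 29.9 CPM in replicates 1, 2 and 3 (log2 fold change -0.60 ± 0.14). Without replicate 1 the higher count was 1.

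Other inflammatory lists held few called genes. Of 23 interferon-stimulated genes 1 was called higher and 0 lower, with a list median of -0.02 in intervene, -0.03 in model and 0.21 in control; the 1 was Gbp2, a guanylate-binding protein, with 15.9, 9.47 and 12.9 CPM in replicates 4, 5 and 6, against 3.17, 7.08 and 4.91 CPM in replicates 1, 2 and 3 (log2 fold change 1.34 ± 0.27). Ifit1, a sensor of viral RNA, had 5.07, 6.78 and 7.59 CPM in replicates 4, 5 and 6, against 6.63, 6.6 and 7.2 CPM in replicates 1, 2 and 3, and these sets overlap. Reads shared between Ifit3 and its near copy Ifit3b make the values of both uncertain. Of 14 complement genes 1 was called higher, C5ar1, and 2 lower, C4b among them. C4b, the complement component that astrocytes and oligodendrocytes make, had 28.6, 24.2 and 24.8 CPM in replicates 4, 5 and 6, against 47.4, 64.2 and 73.3 CPM in replicates 1, 2 and 3 (log2 fold change -1.25 ± 0.20). Of 10 inflammasome genes 1 was called higher and 0 lower, and the sensor Nlrp3 had 1.15, 1.28 and 1.09 CPM in replicates 4, 5 and 6, against 0.285, 1.55 and 0.373 CPM in replicates 1, 2 and 3, which overlap. Of 5 endothelial adhesion genes 4 were measured; Selp was called higher and Icam2 lower. Selp had 1.25, 0.336 and 0.616 CPM in replicates 4, 5 and 6, against 0.142, 0.0647 and 0 CPM in replicates 1, 2 and 3 (log2 fold change 3.39 ± 0.95). Sele, below the filter, had 102 counts in replicates 4 to 6 and 2 in replicates 1 to 3.

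Glial activation genes gave a mixed picture. Of 19 reactive astrocyte genes 18 were measured, 2 were called higher, Ptx3 and Osmr, and 1 lower, Aspg. Ptx3, a pentraxin of the acute response, had 5.54, 3.76 and 3.15 CPM in replicates 4, 5 and 6, against 0.214, 0.323 and 0.59 CPM in replicates 1, 2 and 3 (log2 fold change 3.44 ± 0.52). Gfap, the astrocyte intermediate filament, had 431, 647 and 547 CPM in replicates 4, 5 and 6, against 577, 472 and 716 CPM in replicates 1, 2 and 3, and these sets overlap. Without replicate 2 the higher count was 4. Of 18 reactive microglia genes 0 were called higher and 3 lower, namely Spp1, Ctsd and Trem2. Spp1, which encodes osteopontin, had 12, 13.5 and 15.9 CPM in replicates 4, 5 and 6, against 139, 29.9 and 55.6 CPM in replicates 1, 2 and 3 (log2 fold change -2.44 ± 0.52), with replicate 1 far above the others. Trem2, a lipid receptor of microglia, had 17.9, 13.4 and 17.3 CPM in replicates 4, 5 and 6, against 21.7, 26.6 and 29.8 CPM in replicates 1, 2 and 3 (log2 fold change -0.69 ± 0.21); the call was lost without replicate 2, 3, 5 or 6. Without replicate 5 the lower count was 1.

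Some homeostatic glial genes were called higher. Of 12 homeostatic microglia genes 2 were called higher, Selplg among them, and 0 lower. Without overlap, 2 members were higher and 2 lower, and the list median was -0.03. P2ry12, the ADP receptor of resting microglia, had 32.6, 37.7 and 38.4 CPM in replicates 4, 5 and 6. It had 23.3, 33.4 and 26.9 CPM in replicates 1, 2 and 3, and these sets overlap. Cx3cr1 was lower, with 4.572, 4.194 and 4.127 FPKM in replicates 4, 5 and 6. It had 4.691, 6.625 and 6.127 FPKM in replicates 1, 2 and 3, and was not called. Of 13 homeostatic astrocyte genes 5 were called higher and 0 lower, with 2 to 3 called when any 1 of replicates 1, 3, 4, 5 and 6 was left out. The astrocyte water channel gene Aqp4 had 138, 163 and 112 CPM in replicates 4, 5 and 6, against 205, 151 and 180.4 CPM in replicates 1, 2 and 3, which overlap.

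Hmox1, the inducible haem oxygenase, had 58.6, 53 and 58.3 CPM in replicates 4, 5 and 6, against 5.27, 7.89 and 6.15 CPM in replicates 1, 2 and 3. All 3 replicates of the higher set lay near the same value and the log2 fold change was 3.14 ± 0.35. Hmox2, the constitutive haem oxygenase, had 56.6, 58.4 and 59.7 CPM in replicates 4, 5 and 6, against 38.6, 40.1 and 40.8 CPM in replicates 1, 2 and 3 (log2 fold change 0.55 ± 0.10). Ncoa4, the receptor that delivers ferritin for degradation, had 29, 22.5 and 21.5 CPM in replicates 4, 5 and 6, against 14.2, 15.8 and 16.1 CPM in replicates 1, 2 and 3 (log2 fold change 0.66 ± 0.15), a call lost without replicate 1. Trf, the iron carrier transferrin, which oligodendrocytes also make, was lower, with 394, 432 and 457 CPM in replicates 4, 5 and 6, against 777, 679 and 684 CPM in replicates 1, 2 and 3 (log2 fold change -0.74 ± 0.12). Of 20 haem and iron genes 19 were measured, with 3 called higher (Hmox1, Hmox2 and Ncoa4) and 2 lower (Trf and Cd163), and the list median was 0.05 in intervene, 0.03 in model and 0.02 in control. The ferritin chains Fth1 and Ftl1 had log2 fold changes of 0.14 and 0.15 and were not called.

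None of the erythroid genes was called. Hbb-bs, a beta-globin gene with the near copy Hbb-bt, had 262, 269 and 183 CPM in replicates 4, 5 and 6, against 136, 130.2 and 128 CPM in replicates 1, 2 and 3, a log2 fold change of 0.86 ± 0.28; the sets did not overlap but the gene was not called. Hba-a1, an alpha-globin gene whose reads its near copy Hba-a2 shares, had 89.6, 63 and 51.2 CPM in replicates 4, 5 and 6, against 61.1, 70.9 and 62 CPM in replicates 1, 2 and 3, which overlap. Of 7 erythroid genes 5 were measured and 0 were called higher or lower, with a list median of 0.07 in intervene, -1.04 in model and -0.89 in control. All haemoglobin genes together took 0.0237 to 0.0413% of counts in replicates 4 to 6 and 0.0219 to 0.025% in replicates 1 to 3. A further list held 15 genes of NRF2, the factor that also controls Hmox1, and of its targets. Of these, 4 were called higher (Gclc, Gclm, G6pdx and Nfe2l2, which encodes NRF2 itself) and 0 lower. When any 1 of replicates 1, 3, 5 and 6 was left out, 1 was called. Gclc, the catalytic subunit of glutathione synthesis, had 51.6, 64.4 and 61.7 CPM in replicates 4, 5 and 6, against 36.3, 41.3 and 33.6 CPM in replicates 1, 2 and 3 (log2 fold change 0.68 ± 0.15). Nqo1, a quinone reductase, had 8.44, 9.0 and 9.64 CPM in replicates 4, 5 and 6, against 9.08, 12.8 and 8.69 CPM in replicates 1, 2 and 3, which overlap.

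Immediate early genes, which neurons and other cells switch on within minutes of a stimulus, were called higher in part. All 12 were measured, 5 were called higher and 0 lower, and in 10 all of replicates 4 to 6 lay above all of replicates 1 to 3. Over all genes, 7.17% were called higher and 15.3% were higher without overlap. The list median log2 fold change was 1.23 in intervene, 0.26 in model and 0.39 in control. Fos had 37.6, 42.3 and 28 CPM in replicates 4, 5 and 6, against 10.4, 6.27 and 7.89 CPM in replicates 1, 2 and 3 (log2 fold change 2.14 ± 0.37). Dusp1, a phosphatase of MAP kinases, had 32.1, 49.9 and 55.3 CPM in replicates 4, 5 and 6, against 12.9, 11.3 and 13 CPM in replicates 1, 2 and 3 (log2 fold change 1.88 ± 0.25). These 2 kept their calls whichever library was left out. Junb, a partner of FOS proteins, had 59.9, 85.9 and 84.4 CPM in replicates 4, 5 and 6, against 15.4, 28.3 and 20.5 CPM in replicates 1, 2 and 3 (log2 fold change 1.84 ± 0.43). It was not called without replicate 1, 3 or 6. Fosb had 9.39, 14.3 and 10.4 CPM in replicates 4, 5 and 6, against 5.41, 4.79 and 3.66 CPM in replicates 1, 2 and 3 (log2 fold change 1.30 ± 0.34), a call lost without replicate 3, 5 or 6. Nr4a1, an orphan nuclear receptor, had 30.4, 54.9 and 69.7 CPM in replicates 4, 5 and 6, against 12.3, 15.8 and 12 CPM in replicates 1, 2 and 3 (log2 fold change 1.95 ± 0.52), a call lost without replicate 1, 3, 5 or 6. The count of 5 was 3 without replicate 1, 2 without replicate 3, 3 without replicate 5 and 2 without replicate 6.

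Other stress lists held smaller differences. Of 10 glucocorticoid-response and metallothionein genes 3 were called higher, Per1, Mt1 and Mt2, and 0 lower. The higher count was 0 without replicate 5 and 1 without replicate 1, 3 or 6. Without overlap, 3 members were higher and 1 lower. Zbtb16 was lower, with 0.927, 1.599 and 0.739 FPKM in replicates 4, 5 and 6. It had 2.99, 1.874 and 2.097 FPKM in replicates 1, 2 and 3, and was not called. The sets overlapped for Fkbp5, the first gene of the list. Mt2, a metallothionein, had 400.2, 628 and 469.8 CPM in replicates 4, 5 and 6, against 301, 310.0 and 315 CPM in replicates 1, 2 and 3 (log2 fold change 0.69 ± 0.16), and its call was lost without replicate 5. No heat shock gene of 10 was called; of 12 hypoxia genes 1 was higher and 0 lower, and of 15 p53 and stress genes 2 were higher and 0 lower. Of 17 coagulation and matrix protease genes 3 were called higher, F3 and Plaur among them, and 4 lower. The higher count was 1 without replicate 1, 2 or 5, and the lower count was 2 without replicate 2 or 3 and 1 without replicate 5 or 6.

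**Figure D2:**
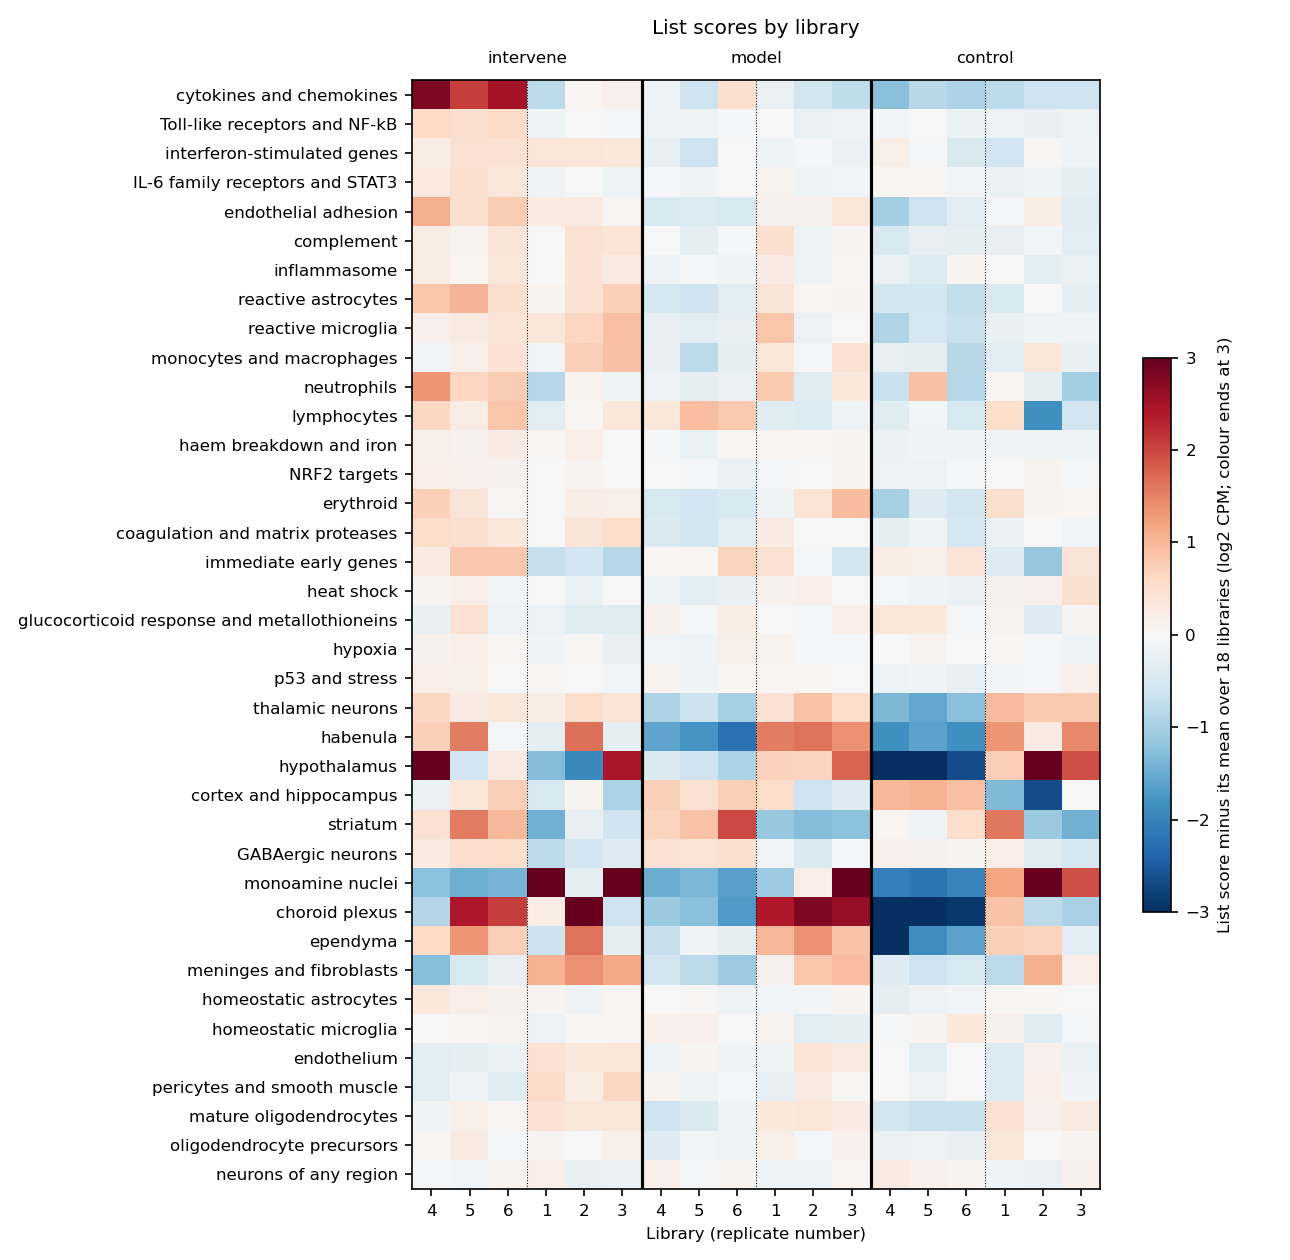
Score of the gene lists other than those for quality (mean log2 CPM of the measured members, minus the list's mean over the 18 libraries) in each library, by group, with replicates 4 to 6 left of replicates 1 to 3. The chemokine score is higher in each of intervene replicates 4 to 6 than in all other libraries, while the hypothalamus and choroid plexus scores vary from library to library within a set.

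Region lists differed in whether they separated the intervene sets, and the thalamic list scores overlapped. Of 16 thalamic genes 0 were called higher and 1 lower, Tcf7l2, and the list scores were 4.71, 4.33 and 4.43 in replicates 4, 5 and 6 and 4.31, 4.62 and 4.49 in replicates 1, 2 and 3. Tcf7l2, a transcription factor of thalamic and habenular neurons, had 48.6, 32.8 and 36.7 CPM in replicates 4, 5 and 6, against 96.2, 91.4 and 60.6 CPM in replicates 1, 2 and 3 (log2 fold change -1.07 ± 0.32). Its call was lost without replicate 1, 2, 5 or 6, and without replicate 4 the lower count was 4. Shox2, a transcription factor of thalamic neurons, had 19.4, 11.5 and 15.8 CPM in replicates 4, 5 and 6, against 21.6, 17.8 and 13.5 CPM in replicates 1, 2 and 3, and these sets overlap. Ntng1, an axonal adhesion molecule of thalamocortical neurons, had 33.1, 30.3 and 29.8 CPM in replicates 4, 5 and 6, against 36.5, 41.2 and 37.6 CPM in replicates 1, 2 and 3, lower in all of replicates 4 to 6 but not called. Slc17a6, the vesicular glutamate transporter of thalamic relay neurons, had 116, 44 and 52.7 CPM in replicates 4, 5 and 6, against 171, 103 and 153 CPM in replicates 1, 2 and 3, which overlap. All 6 intervene libraries thus held transcripts of the defining thalamic markers.

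In the other groups these markers were far lower in replicates 4 to 6. Shox2 had 0.224, 0.771 and 0.21 CPM in model replicates 4, 5 and 6, against 11.7, 28.8 and 23.7 CPM in model replicates 1, 2 and 3. In control it had 0.0642, 0 and 0.133 CPM in replicates 4, 5 and 6, against 26, 24 and 27 CPM in replicates 1, 2 and 3. Tcf7l2 had 8.02, 10.5 and 4.79 CPM in model replicates 4, 5 and 6, against 53.6, 144 and 72.6 CPM in model replicates 1, 2 and 3, and 4.68, 3.82 and 5.05 CPM in control replicates 4, 5 and 6, against 98.6, 102 and 101 CPM in control replicates 1, 2 and 3. The thalamic list had a median log2 fold change of -0.15 in intervene, -1.05 in model and -2.02 in control, so the set gap of the intervene group was near 0 where both other groups had a large one. Replicates 4 to 6 of model and control therefore go against the label of thalamus by these markers.

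**Figure D3:**
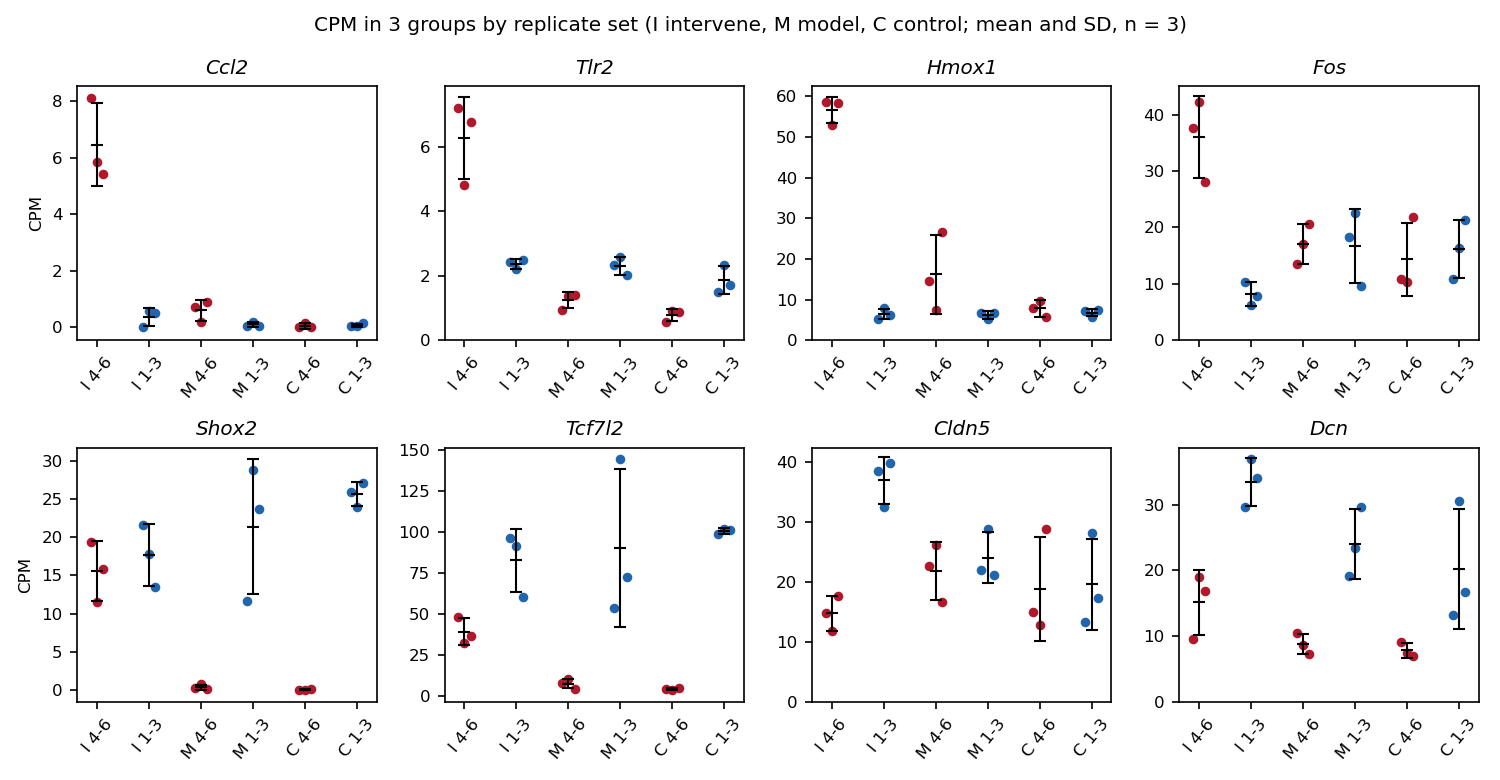
CPM of 8 genes in the 6 combinations of group (I intervene, M model, C control) and replicate set, with replicates 4 to 6 (red) left of 1 to 3 (blue); points are libraries, with the mean and SD of 3. Ccl2, Tlr2, Hmox1 and Fos are highest in intervene 4 to 6, Shox2 and Tcf7l2 are far lower in model and control 4 to 6 than in intervene 4 to 6, and Cldn5 is lowest on average in intervene 4 to 6.

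Of 9 habenula genes 0 were called higher and 1 lower, Chrnb3. Tac2, a tachykinin of medial habenula neurons, had 45.3, 65 and 46 CPM in replicates 4, 5 and 6, against 5.56, 37.8 and 24.8 CPM in replicates 1, 2 and 3 (log2 fold change 1.19 ± 0.47). Its sets did not overlap, but it was not called. Pou4f1, a habenular transcription factor, had 5.57, 13 and 1.98 CPM in replicates 4, 5 and 6, against 11.4, 17 and 4.91 CPM in replicates 1, 2 and 3, which overlap. The list scores were 3.30, 4.12 and 2.55 in replicates 4, 5 and 6 and 2.29, 4.24 and 2.30 in replicates 1, 2 and 3, highest in replicates 2 and 5. Without replicate 2 the higher count was 3.

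Hypothalamic genes varied between single libraries rather than between sets. Oxt, which encodes oxytocin, had 439, 36.2 and 178 CPM in replicates 4, 5 and 6, against 0.285, 1.03 and 107 CPM in replicates 1, 2 and 3. Pmch, the precursor of melanin-concentrating hormone, had 162, 0.403 and 0.376 CPM in replicates 4, 5 and 6, against 8.69, 0.097 and 61.5 CPM in replicates 1, 2 and 3. Replicate 4 was the highest of its set and replicate 3 of the other for both peptides, and the list scores were 4.78, 1.08 and 1.94 in replicates 4, 5 and 6 and 0.37, -0.27 and 4.10 in replicates 1, 2 and 3. None of 16 genes was called in either direction, and 5 were called higher without replicate 3. The Pmch log2 fold change of 1.20 ± 1.63 turned to -5.90 without replicate 4.

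Choroid plexus followed another division. Ttr, the transthyretin that choroid epithelium secretes, had 101, 3949 and 3407 CPM in replicates 4, 5 and 6, against 564, 10063 and 64.1 CPM in replicates 1, 2 and 3, high in replicates 2, 5 and 6. The list scores were 1.49, 4.81 and 4.46 in replicates 4, 5 and 6 and 2.60, 6.19 and 1.75 in replicates 1, 2 and 3. Of 14 genes 0 were called, and 3 were higher without replicate 2. For ependyma, the ciliated lining of the ventricles, 0 of 10 were called, and 6 were higher without replicate 2. Foxj1, the master regulator of motile cilia, had 29.3, 45.2 and 31.6 CPM in replicates 4, 5 and 6, against 14.6, 51.7 and 14.2 CPM in replicates 1, 2 and 3, with replicates 1 and 3 lowest.

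Genes of midbrain and monoamine nuclei were called lower in replicates 4 to 6 and made up most of the largest differences in that direction. Of 9 monoamine genes 0 were called higher and 5 lower, with a median log2 fold change of -5.71 in intervene, -3.01 in model and -4.67 in control, or -4.73 in intervene with genes of 0 counts set at their bound. Tph2, the rate-limiting enzyme of brain serotonin synthesis, had 0.675, 1.34 and 1.5 CPM in replicates 4, 5 and 6, against 75, 3.75 and 106 CPM in replicates 1, 2 and 3 (log2 fold change -5.71 ± 1.68). Slc6a4, the serotonin transporter, had 0, 0.134 and 0 CPM in replicates 4, 5 and 6, against 28.4, 0.97 and 46.1 CPM in replicates 1, 2 and 3 (log2 fold change -9.02 ± 2.56). Replicate 2 lay far below replicates 1 and 3 for both and still above replicates 4 to 6. Th, the rate-limiting enzyme of dopamine and noradrenaline synthesis, had 30.4, 7.65 and 12 CPM in replicates 4, 5 and 6, against 79.6, 5.04 and 62.9 CPM in replicates 1, 2 and 3, which overlap because replicate 2 was lowest of all. Calls of Tph2 and Slc6a4 were lost when any 1 of replicates 1, 3, 4, 5 and 6 was left out, and the list count of 5 was then 1. The count also turned on the method, being 0 by limma-voom, 1 with every gene counted, 1 in the 6 intervene libraries alone, 3 on FPKM and 8 by DESeq2.

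Transcription factors known from neurons of the midbrain and its neighbours were at or near 0 in replicates 4 to 6. En1, of midbrain dopamine neurons, had 0.0675, 0.0671 and 0.137 CPM in replicates 4, 5 and 6, against 13.2, 2.07 and 6.15 CPM in replicates 1, 2 and 3 (log2 fold change -6.25 ± 1.34). Gata3, of midbrain GABAergic and serotonergic neurons, had 0.0675, 0.134 and 0 CPM in replicates 4, 5 and 6, against 18, 6.14 and 9.84 CPM in replicates 1, 2 and 3 (log2 fold change -7.32 ± 1.51), a call lost without replicate 6. Barhl1, a homeobox factor, had 0.135, 0 and 0.0684 CPM in replicates 4, 5 and 6, against 15.4, 4.53 and 4.53 CPM in replicates 1, 2 and 3 (log2 fold change -6.84 ± 1.20). Every replicate of 1 to 3 lay above 2 CPM and every replicate of 4 to 6 below 0.2 CPM for these 3 genes. Pax7, a factor of the dorsal midbrain, had 2 counts in replicates 4 to 6 and 394 in replicates 1 to 3, a ratio of 191 with an exact 95% interval of 52.6 to 1586. Pou4f2 had 0 counts in replicates 4 to 6 and 427 in replicates 1 to 3, at least 138-fold lower, and its call was lost when any 1 of the 6 libraries was left out. Chrna6, a nicotinic receptor subunit of dopamine neurons, had 0.338, 0.201 and 0.205 CPM in replicates 4, 5 and 6, against 15.4, 2.07 and 9.22 CPM in replicates 1, 2 and 3 (log2 fold change -5.14 ± 0.98).

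A gene among the 10 largest lower differences was no region gene. H2-Q1, a class Ib histocompatibility gene with near-identical neighbours whose reads it may share, had 2 counts in replicates 4 to 6 and 149 in replicates 1 to 3. The ratio was 72.4 with an exact 95% interval of 19.7 to 603.

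Few striatal genes were called. All 12 were measured and 1 was called higher and 0 lower, a share near the 7.17% of all genes; the count was 0 without replicate 1 or 5, 5 by DESeq2 and 3 in the 6 intervene libraries alone. In 11 of the 12 all of replicates 4 to 6 lay above all of replicates 1 to 3, as in 15.3% of all genes. The median log2 fold change was 1.76 in intervene, 2.40 in model and -0.17 in control. Drd1, the D1 dopamine receptor, had 13.6, 30.9 and 19 CPM in replicates 4, 5 and 6, against 2.64, 11 and 6.36 CPM in replicates 1, 2 and 3 (log2 fold change 1.66 ± 0.87). Penk, the enkephalin precursor, had 263, 761 and 490.3 CPM in replicates 4, 5 and 6, against 107, 155 and 148 CPM in replicates 1, 2 and 3 (log2 fold change 1.88 ± 0.68). Six3, a homeobox factor of the ventral forebrain and the 1 gene called, had 62.9, 57.9 and 39.4 CPM in replicates 4, 5 and 6, against 12.1, 18.1 and 27.3 CPM in replicates 1, 2 and 3 (log2 fold change 1.48 ± 0.35); the call was lost without replicate 1 or 5. Of 12 GABAergic genes 5 were called higher and 0 lower, with 2 called without replicate 1 and 2 without replicate 5. Npy, which encodes neuropeptide Y, had 122, 135 and 221 CPM in replicates 4, 5 and 6, against 45.2, 54.5 and 47.1 CPM in replicates 1, 2 and 3 (log2 fold change 1.70 ± 0.25). Sst, which encodes somatostatin, had 451, 376 and 531 CPM in replicates 4, 5 and 6, against 255, 187 and 273 CPM in replicates 1, 2 and 3 (log2 fold change 0.92 ± 0.17). Dlx5, of ventral forebrain interneurons, had 9.63, 26.1 and 15.2 CPM in replicates 4, 5 and 6, against 0.855, 5.11 and 2.55 CPM in replicates 1, 2 and 3 (log2 fold change 2.57 ± 0.61), lost without replicate 1, 3 or 5.

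Of 16 cortical and hippocampal genes 1 was called higher, Cux2, and 0 lower, with a median of 0.78 in intervene, 0.88 in model and 1.72 in control. Slc17a7, the vesicular glutamate transporter of cortical neurons, had 512, 727 and 1004 CPM in replicates 4, 5 and 6, against 447, 698 and 278 CPM in replicates 1, 2 and 3, which overlap. Of 10 genes of neurons of any region 1 was called higher, Rbfox3, which encodes NeuN, with 197, 247 and 281 CPM in replicates 4, 5 and 6, against 123, 167 and 109.6 CPM in replicates 1, 2 and 3 (log2 fold change 0.86 ± 0.22); the call was lost without replicate 1, 3, 5 or 6. None of 13 mitochondrially encoded genes was called, and 5 were higher without replicate 4. Of 4 measured sex-linked genes 0 were higher and 1 lower.

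Meningeal and fibroblast genes were called lower throughout. All 9 were measured, 0 were called higher and 9 lower, and none of the 9 had overlapping sets. Over all genes, 6.59% were called lower and 15.4% were lower without overlap. Dcn, the matrix proteoglycan decorin, had 9.52, 19 and 16.9 CPM in replicates 4, 5 and 6, against 29.6, 36.9 and 34 CPM in replicates 1, 2 and 3 (log2 fold change -1.15 ± 0.29), a call lost without replicate 3 or 6. Lum, the proteoglycan lumican, had 0.946, 1.68 and 1.78 CPM in replicates 4, 5 and 6, against 3.99, 5.95 and 5.22 CPM in replicates 1, 2 and 3 (log2 fold change -1.78 ± 0.30). Col3a1, a fibrillar collagen, had 1.15, 1.95 and 1.5 CPM in replicates 4, 5 and 6, against 6.84, 6.14 and 7.45 CPM in replicates 1, 2 and 3 (log2 fold change -2.15 ± 0.39). In model the list had 7 of 9 called lower and in control 3 of 9, with medians of -1.78 in intervene, -1.40 in model and -0.66 in control.

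Many vessel genes were called lower as well. Of 12 endothelial genes 0 were called higher and 7 lower, and 10 were lower without overlap. Over all genes, these shares were 6.59% called lower and 15.4% lower without overlap. The list median log2 fold change was -0.81 in intervene, -0.32 in model and 0.05 in control. Cldn5, the main claudin of the blood-brain barrier, had 14.9, 11.7 and 17.6 CPM in replicates 4, 5 and 6, against 38.5, 32.5 and 39.9 CPM in replicates 1, 2 and 3 (log2 fold change -1.33 ± 0.31), a call lost without replicate 5. Esam, an endothelial junction molecule, had 7.09, 6.28 and 7.69 CPM in replicates 4, 5 and 6, against 13, 11.6 and 13.6 CPM in replicates 1, 2 and 3 (log2 fold change -0.86 ± 0.13). The count of 7 was 4 without replicate 1, 3 or 6 and 3 without replicate 5. Of 10 pericyte and smooth muscle genes 9 were measured, 0 called higher and 4 lower, with 1 to 2 lower when any 1 of replicates 1, 3, 5 and 6 was left out. Pdgfrb, the growth factor receptor of pericytes, had 16, 11.1 and 12.4 CPM in replicates 4, 5 and 6, against 14, 14.7 and 16.5 CPM in replicates 1, 2 and 3, which overlap.

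Among mature oligodendrocyte genes, 4 of 10 were called lower and 0 higher, and 2 were lower when any 1 of replicates 1 to 5 was left out. Mag, the myelin-associated glycoprotein, had 173, 207 and 187 CPM in replicates 4, 5 and 6, against 344, 305 and 306 CPM in replicates 1, 2 and 3 (log2 fold change -0.75 ± 0.11), and kept its call whichever library was left out. Mbp, the myelin basic protein, had 8218, 8785 and 8517 CPM in replicates 4, 5 and 6, against 11252, 7523 and 8723 CPM in replicates 1, 2 and 3, which overlap because replicate 2 was lowest. Of 8 precursor genes 1 was called higher and 0 lower.

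**Figure D4:**
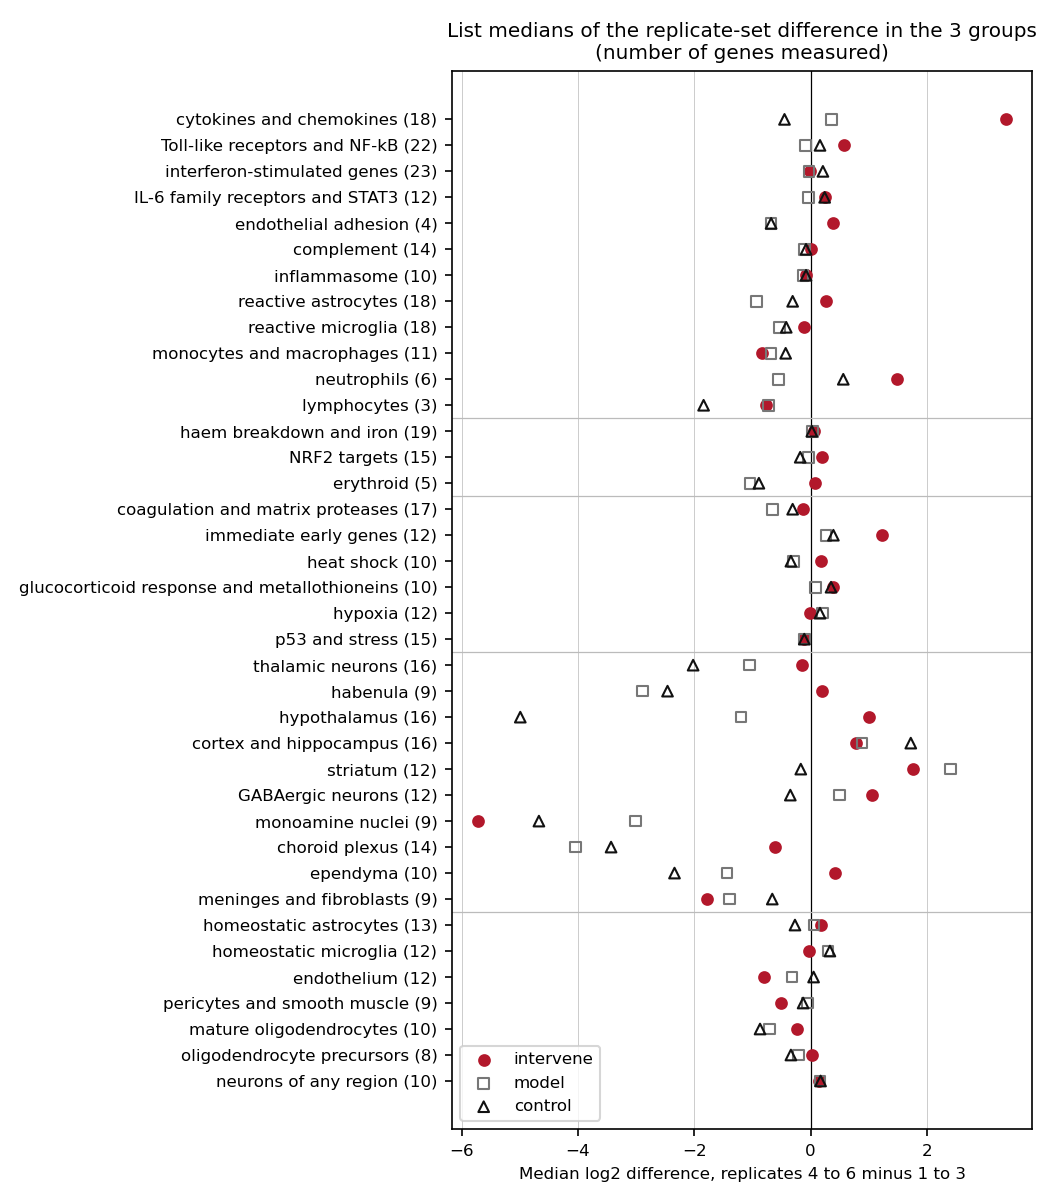
Median log2 fold change of each list, replicates 4 to 6 minus 1 to 3, in intervene (filled circle), model (square) and control (triangle). The chemokine list lies at 3.35 in intervene, 0.36 in model and -0.45 in control, whereas the thalamus, habenula, hypothalamus and choroid plexus lists lie nearest to 0 or above it in intervene.

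The intervene gap was then tested against the gap of the model group, in the same fit, as a difference of log2 fold changes. Of 19513 genes 51 had a larger value in intervene (0.261%) and 14 a smaller one (0.0717%) at an adjusted p under 0.05. Of the 51, 25 were called higher in intervene, 37 were called lower in model, and in 32 the model gap was larger in size than the intervene gap. Of the 14, 7 were called lower in intervene and 10 higher in model. The count of 65 depended on single libraries: it was 2 without model replicate 2 or 4, 4 without model replicate 3 or intervene replicate 5, 6 without intervene replicate 3 and 8 without intervene replicate 1. It was 21 without intervene replicate 6, 26 without model replicate 5, 205 without intervene replicate 4, 328 without model replicate 1 and 567 without intervene replicate 2. On FPKM the test called 40, 21 higher and 19 lower, a share of 52.5% higher against 78.5% on counts.

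Inflammatory genes in this test included Tlr2, whose gap differed by 2.31 ± 0.35 on the log2 scale (SE, adjusted p = 0.0249, edgeR). Its log2 fold change was 1.41 in intervene and -0.90 in model, so both sides contributed, and the call was lost without model replicate 2 or 4. Ptx3 differed by 4.46 ± 0.75 (adjusted p = 0.0274), being 3.44 in intervene and -1.01 in model; it was not called without intervene replicate 1 or 5 or model replicate 2, 3 or 4. Csf1 and Nfkb2, named after their values were seen, differed by 0.95 ± 0.20 (adjusted p = 0.0465) and 1.35 ± 0.27 (adjusted p = 0.0459). They kept the call in 4 and 3 of 12 fits that each left out 1 library. The log2 fold change of Csf1 was 0.22 in intervene, where it was not called, and -0.73 in model, so the model side was the larger. That of Nfkb2 was 0.96 in intervene and -0.39 in model. Tlr2, Ptx3, Csf1 and Nfkb2 were the only cytokine, Toll-like receptor, NF-kB or reactive astrocyte list members called.

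The markers themselves were not called against model. Ccl2 differed by 1.65 ± 1.33 (adjusted p = 0.573), with log2 fold changes of 4.13 in intervene and 2.49 in model. Ccl2 had 0.726, 0.178 and 0.91 CPM in model replicates 4, 5 and 6, against 0.0613, 0.199 and 0.0593 CPM in model replicates 1, 2 and 3. Cxcl10 differed by 2.94 ± 1.29 (adjusted p = 0.271), with 2.88 in intervene and -0.06 in model. Hmox1 differed by 1.76 ± 0.46 (adjusted p = 0.0983), with 3.14 in intervene and 1.38 in model. The model libraries had 14.6, 7.41 and 26.6 CPM of Hmox1 in replicates 4, 5 and 6, against 6.68, 5.17 and 6.76 CPM in replicates 1, 2 and 3. A p that misses the threshold does not show that the gaps were alike. Of the 18 measured cytokine genes 17 had a larger gap in intervene than in model, with a median difference of 1.58, beside a median of 0.0014 over all genes. This list holds Ccl2 and Cxcl10 and was chosen with these values known. The difference also contains the intervene gap that set the boundary, so nothing is read from this count.

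Region genes in the same test were mostly those lower in model replicates 4 to 6. Shox2 differed by 5.53 ± 0.60 (adjusted p = 0.00186) and Ntng1 by 1.62 ± 0.19 (adjusted p = 0.00186), and these 2 were called in all 12 fits that left out 1 library. Their log2 fold changes were -0.18 and -0.31 in intervene and -5.71 and -1.93 in model. Tcf7l2 differed by 2.46 ± 0.47 (adjusted p = 0.0449), Pou4f1 by 6.12 ± 1.17 (adjusted p = 0.0465) and Chrna3, a habenular nicotinic receptor subunit named after its value was seen, by 4.31 ± 0.75 (adjusted p = 0.0353); they kept the call in 3, 4 and 4 of the 12 fits. Irx1, a homeobox factor, differed by 3.25 ± 0.51 (adjusted p = 0.0274) and Ccdc190 by 1.02 ± 0.16 (adjusted p = 0.0274).

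Smaller values in intervene included Esam, which differed by -1.08 ± 0.19 (adjusted p = 0.0286), with -0.86 in intervene and 0.22 in model. Ltk, a receptor tyrosine kinase, differed by -1.31 ± 0.24 (adjusted p = 0.0299), mostly through the model value of 1.15. Lars2 differed by -2.29 ± 0.41 (adjusted p = 0.0388), with -1.38 in intervene and 0.91 in model; reads of ribosomal RNA are known to collect at this mouse gene, so its value is uncertain. Fam168b differed by -0.70 ± 0.13 (adjusted p = 0.0388). Cep83os, an antisense transcript whose reads cannot be told apart from those of its partner because no strand use is stated, differed by -1.04 ± 0.18 (adjusted p = 0.0276). Irx1 kept its call in 7 of 12 fits leaving out 1 library, Esam, Ccdc190 and Cep83os in 6, and Ltk, Lars2 and Fam168b in 4.

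Against control, 1720 genes had a larger gap in intervene (8.81%) and 1518 a smaller one (7.78%), and the total of 3238 was 2111 without control replicate 4 and 2030 without control replicate 5. On FPKM the split was 1108 and 1580, a share of 41.2% higher against 53.1% on counts. The cytokine list had 11 of 18 called larger in intervene and 0 smaller, thalamic neurons 12 of 16 and 0, hypothalamus 10 of 16 and 0, and ependyma 9 of 10 and 0. The cytokine list holds Ccl2 and Cxcl10 and was chosen with these values known, so nothing is read from its count. Among the lowest p were Ntng1 (a difference of 2.03 ± 0.19, adjusted p = 5.94e-05, edgeR), Shox2 (8.69 ± 0.75, adjusted p = 5.94e-05), the potassium channel Kcnj5 (4.54 ± 0.51, adjusted p = 0.000335) and Ccdc190 (1.40 ± 0.16, adjusted p = 0.000354). In the other direction stood Esam (-1.60 ± 0.19, adjusted p = 0.00037), Ltk (-2.00 ± 0.24, adjusted p = 0.00037), Dpysl4 (-1.22 ± 0.15, adjusted p = 0.00037), Tmem132a (-1.81 ± 0.22, adjusted p = 0.000469) and Klhl40 (-3.03 ± 0.38, adjusted p = 0.000524). Of the genes called against model, 49 of 51 and 13 of 14 were also called against control in the same direction; both tests share the intervene libraries.

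**Figure D5:**
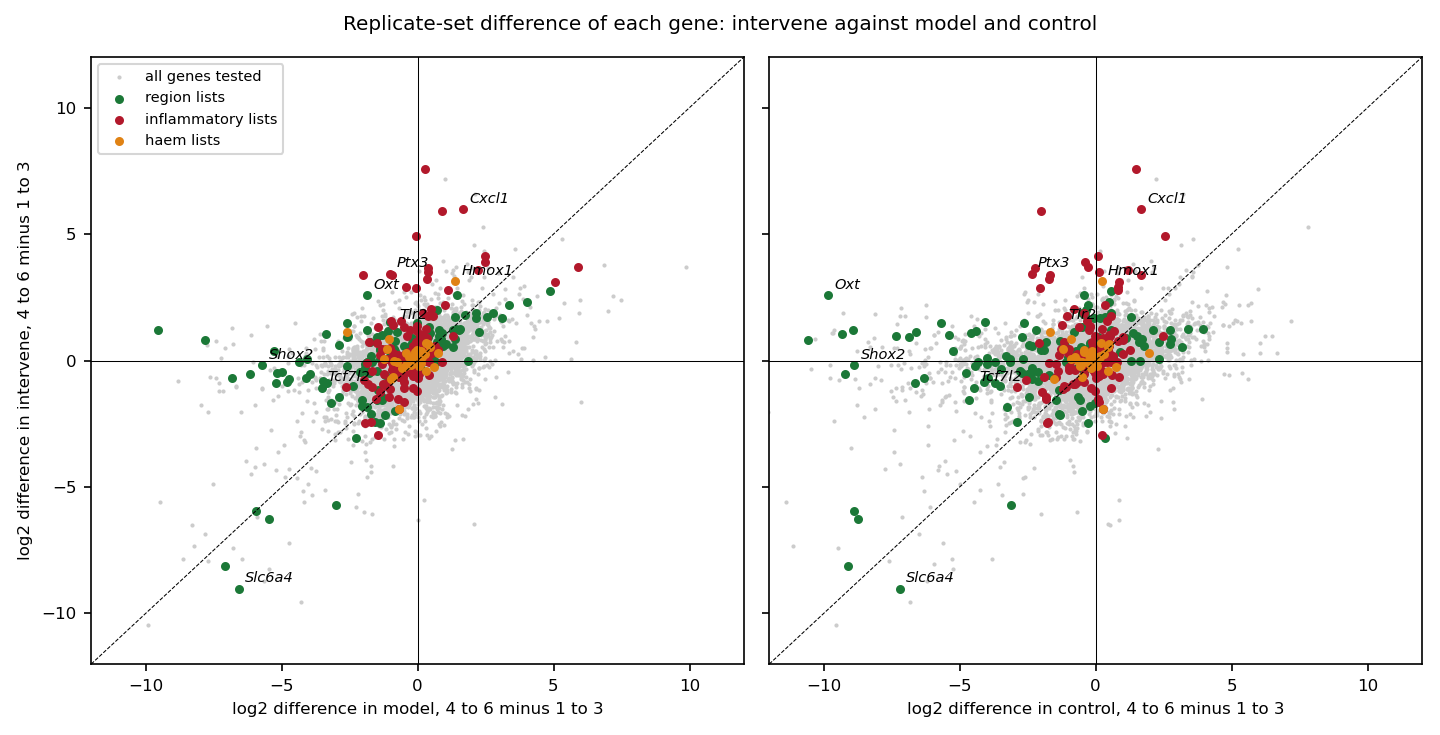
Log2 fold change of each gene between replicates 4 to 6 and 1 to 3 in intervene (vertical) against the same in model (left) and control (right), with genes of the inflammatory, haem and region lists coloured. Cxcl1, Hmox1 and Ptx3 lie above the diagonal, and Shox2 and Tcf7l2 lie nearer 0 in intervene than in model and control.

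The set gaps of the groups share no library and were correlated across the 19513 genes, which are not independent replicates. Pearson's r was 0.49 and Spearman's rho 0.46 between intervene and model, and 0.36 and 0.34 between intervene and control, beside 0.72 and 0.73 between model and control. Of the 1399 genes called higher in intervene, 427 were called higher in model (30.5% of the intervene genes and 26.3% of the model genes) and 529 in control (37.8% and 15.1%). Of the 1286 lower genes, 421 were lower in model (32.7% and 23.6%) and 474 in control (36.9% and 13%). No call in the same direction in either other group was found for 787 of the 1399 (56.3%) and 709 of the 1286 (55.1%). Length was related to the fold only weakly among the 17921 genes counted in every library. These were ordered by the gene length that the deposited counts and FPKM imply. The median log2 fold change in intervene was 0.02, 0.04, -0.01 and -0.09 in 4 bins of near equal size, shortest first.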

How the data were processed

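RNA of wild-type mouse thalamus was measured in 18 libraries, with polyA capture and no strand use stated, per the labels' protocols. The authors deposited raw counts per gene and an FPKM table; the tools named are HISAT2 and featureCounts and the build is GRCm39, per the submitters' processing notes; no versions are given in the sources used here. FPKM as deposited are the same counts divided by gene length and library total and served only as an alternative. Whether the reads of a pair were counted singly is not stated.

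The counts went into edgeR 4.0.16 (R 4.3.3) and its robust quasi-likelihood test on all 18 libraries, with a mean for each of 6 combinations of group and replicate set. Scaling was by TMM after filterByExpr, adjusted p is Benjamini-Hochberg over 19513 genes with a threshold of 0.05, and CPM are TMM-scaled. SE is the log2 fold change divided by the square root of F. The report gives the ranges of library totals. The fit was tested on simulated counts.

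The sets, the 40 gene lists (505 genes) and the genes named were chosen with earlier results of these data known. Named by rule were the 3 marker genes and Nat10; the 10 largest called folds in each direction with non-overlapping sets, at least 1 CPM on average in the higher set and a proper symbol; the first gene and up to 4 members of lowest p of each list; and the 5 genes of lowest p in each direction of each difference test. Some genes that the rule names are not reported here. Other list members were named after their values were seen. A list score is the mean log2 CPM with a prior count of 2. Alternatives were other scalings and filters, DESeq2 1.42.0, limma 3.58.1 on counts and on log2(FPKM + 1), the 6 libraries alone, the replicate number as a block and each library left out. Halved counts were added after seeing the data.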

Additional observations from a re-analysis of the deposited data

Results flagged for a closer look

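In 9 genes 1 of the 6 intervene libraries stood apart, its gap to the next value being over 0.625 of the range. Chance passes this limit in about 1 of 20 groups. The number of genes screened is not given here, so the count of 9 cannot be set against that share. Il12b reached 2.80 CPM in replicate 6 (next 0.54) and Klhl40 5.61 CPM in the same library (next 3.73). Replicate 1 was highest for Spp1 at 139 CPM (next 55.6), Cd79a at 1.71 CPM (next 0.528), Barhl1 at 15.3 CPM (next 4.53), Mbp at 11250 CPM (next 8785) and Ltk at 9.69 CPM (next 7.50). Replicate 2 was highest for Nqo1 at 12.8 CPM (next 9.64) and Cep83os at 19.5 CPM (next 16.6).

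The gap between replicates 4 to 6 and 1 to 3 differed between intervene and model in 65 genes and between intervene and control in 3238, by the test of the difference itself. Named genes with a larger value in intervene than in model, on the log2 scale, were Pou4f1 (6.12), Shox2 (5.53), Ptx3 (4.46), Chrna3 (4.31), Irx1 (3.25), Tcf7l2 (2.46), Tlr2 (2.31), Ntng1 (1.62), Nfkb2 (1.35), Ccdc190 (1.02) and Csf1 (0.955). Those with a smaller value were Lars2 (-2.29), Ltk (-1.31), Esam (-1.08), Cep83os (-1.04) and Fam168b (-0.705). Against control the named genes were Shox2 (8.69), Kcnj5 (4.54), Ntng1 (2.03) and Ccdc190 (1.40), and in the other direction Klhl40 (-3.03), Ltk (-2.00), Tmem132a (-1.81), Esam (-1.60) and Dpysl4 (-1.22).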

How the results depend on the processing

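The intervene calls numbered 2685, 984 to 3179 with 1 library left out and 1005 (603 higher, 402 lower) in the 6 intervene libraries alone. The model calls were 3407, and 1209 to 3764 with 1 library left out; the control calls were 7131, and 5094 to 6458. The difference between intervene and model called 65 genes, 2 to 567 with 1 library left out, 14 on library totals, 120 without the filter, 704 by DESeq2 and 40 on FPKM. The difference between intervene and control called 3238, and 2030 to 3129 with 1 library left out. Library totals moved the median log2 fold change of the intervene sets by -0.087. With 1 library left out, 13 of 108 named genes took both signs in the intervene sets and 17 in the difference from model, none of them called with all libraries. Of these Pmch was the 1 whose turned value passed the threshold, at -5.903 without intervene replicate 4, its range being -5.903 to 3.64. Over the alternatives, 1479 of 1610 intervene folds of named genes and 2078 of 2252 differences from model stayed on the same side of the threshold with no called value changing sign. Halved counts gave 2842, 3552, 7045, 67 and 3377 calls in the 5 comparisons. In the 6 intervene libraries alone, the higher calls were 2 of GABAergic genes, 1 each of IL-6 family, NRF2 and glucocorticoid lists and 3 of homeostatic astrocytes, and the lower calls were 2 each of oligodendrocyte and pericyte genes. On library totals and on FPKM, the NRF2 list had 1 and homeostatic astrocytes 2 higher. With every gene counted, GABAergic and immediate early genes had 3 higher, the NRF2 list 2, and oligodendrocyte and protease genes 2 lower. DESeq2 called 8 immediate early genes higher, and 4 haem and iron and 3 thalamic genes lower; limma-voom called 2 protease and 3 thalamic genes lower, and FPKM 3 thalamic. The causes were not tested.

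With the replicate number as a block, the difference from model called 45 genes and that from control 2951. Same-numbered libraries of intervene and model did not deviate together, with correlations of -0.16 to 0.11, over 0.1 in 1 of 6 pairs, nor did those of intervene and control, at -0.28 to 0.06. These values gave no sign of pairing by number. Low correlations cannot exclude it, since other variation between libraries could hide a shared part, and the labels do not say what the numbers mean. No paired analysis was possible between the intervene sets because replicates 4 to 6 and 1 to 3 share no number.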
